A study of Mus musculus with 8 samples.

Results

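De novo p53 regions near genes were the intervals that the authors listed as bound more strongly by p53 after bleomycin (BLM) and that met both parts of a fixed rule. Such an interval overlapped no p53 peak of either vehicle library by even 1 bp, and its centre lay at most 30 kb from the nearest transcription start site (TSS) to which the authors' gene table assigned it. The rule selected 242 of 915 BLM-enriched regions. A further 241 enriched regions lay within 30 kb of a TSS and were also called in vehicle, 279 de novo regions lay farther than 30 kb from a TSS or had no assigned gene (1 region), and 521 of the 915 regions were de novo in all. The members were thus chosen by the BLM-against-CTRL contrast and the distance, so the peak heights in BLM and the absence from CTRL are given as a description and were not tested.

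The data were p53 chromatin immunoprecipitation followed by sequencing (ChIP-seq) of alveolar organoids grown from wild-type mouse AT2 cells, the surfactant-producing stem cells of the alveolus. Group CTRL (2 libraries) received the vehicle DMSO for 24 h and group BLM (2 libraries) received 100 μM bleomycin, a drug that breaks DNA, for 24 h. All 4 libraries were made with the same rabbit monoclonal antibody to p53 (D2H9O) after crosslinking with formaldehyde and DSG, and no library without p53 was among them. The study drew on cells of 2 mice without stating how the libraries divide between them, so the spread between replicates may be in part technical. Peak lists hold no gene expression, and the labelled cell type could not be set against its markers. The lists held 48743 and 50430 peaks in CTRL and 39577 and 41451 in BLM, with no read counts, so the sequencing depth is unknown and absence from a CTRL list means only that no peak passed the authors' threshold, not that p53 was absent.

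p53 is a transcription factor that is stabilised when DNA is damaged. It binds as a tetramer to a response element made of 2 copies of a 10-base half-site, and switches on genes of cell cycle arrest, apoptosis, DNA repair and metabolism, together with its own inhibitors. Its sites lie in promoters and first introns as well as at enhancers far from any gene. In injured alveoli p53 is known for its part in the arrest and the transitional state of AT2 cells.

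The promoters that de novo regions reached are shown first, since they are the places where the data bear on a known start site. A region 400 bp wide reached the RefSeq promoter window, from 250 bases before to 50 bases after a gene's start, at 7 of the 242 members. The promoters of 5 of these 7 genes had an entry in the RefSeq table for GRCm38.p6, and 4 are printed here from 5′ to 3′, with every match to the p53 half-site consensus in capitals, 1 mismatch outside the core C and G allowed. The consensus is its own reverse complement, so 1 search covers both strands. *Zfp365*, a p53 target that protects fragile parts of the genome, spans chr10:67912613-67912912 on the minus strand. *Krtap3-2*, a hair keratin-associated protein, spans chr11:99556804-99557103 on the minus strand. *Inpp5b*, an inositol phosphatase, spans chr4:124741600-124741899 on the plus strand. *Prkar1a*, the regulatory subunit of protein kinase A, has 6 listed starts, and the second, chr11:109649113-109649412 on the plus strand, is shown because it alone held an exact half-site.

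Zfp365: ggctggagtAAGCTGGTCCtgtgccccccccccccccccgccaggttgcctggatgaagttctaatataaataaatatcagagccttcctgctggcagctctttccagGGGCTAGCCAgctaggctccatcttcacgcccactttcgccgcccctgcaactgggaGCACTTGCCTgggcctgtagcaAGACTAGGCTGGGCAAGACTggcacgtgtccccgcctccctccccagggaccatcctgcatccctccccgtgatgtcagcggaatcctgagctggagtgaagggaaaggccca

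Krtap3-2: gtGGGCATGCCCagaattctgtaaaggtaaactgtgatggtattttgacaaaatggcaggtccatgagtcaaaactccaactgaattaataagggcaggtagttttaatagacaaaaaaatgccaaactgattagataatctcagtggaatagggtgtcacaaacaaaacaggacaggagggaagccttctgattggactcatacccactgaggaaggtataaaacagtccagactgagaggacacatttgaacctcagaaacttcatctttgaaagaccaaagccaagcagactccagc

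Inpp5b: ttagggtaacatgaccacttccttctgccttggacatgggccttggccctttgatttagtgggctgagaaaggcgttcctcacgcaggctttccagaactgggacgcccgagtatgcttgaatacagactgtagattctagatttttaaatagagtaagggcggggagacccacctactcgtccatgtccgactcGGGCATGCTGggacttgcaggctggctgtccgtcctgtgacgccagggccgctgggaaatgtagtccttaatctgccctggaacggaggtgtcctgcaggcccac

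Prkar1a: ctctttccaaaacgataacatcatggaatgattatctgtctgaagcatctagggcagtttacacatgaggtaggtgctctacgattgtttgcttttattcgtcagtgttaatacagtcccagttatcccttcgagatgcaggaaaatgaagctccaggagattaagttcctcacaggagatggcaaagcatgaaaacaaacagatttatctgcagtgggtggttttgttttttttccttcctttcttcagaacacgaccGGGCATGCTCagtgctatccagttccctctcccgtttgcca

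In *Zfp365* the capitals AGACTAGGCT and GGGCAAGACT lay side by side at −63 to −54 and −53 to −44 from the RefSeq start, the start base itself counted as 0, each with 1 mismatch. With no base between them they formed a full site, and no other of the 4 promoters held a full site even with these mismatches. The summits of the BLM peaks lay at −48 in replicate 1 and −72 in replicate 2, measured from the TSS of the authors' gene table. In *Krtap3-2* the exact half-site GGGCATGCCC lay at −248 to −239, with summits at −218 and −250. The half-site GGGCATGCTG of *Inpp5b*, with 1 mismatch, lay at −55 to −46, and both summits, at −37 and −36, fell within 20 bp of it. *Prkar1a* held the exact half-site GGGCATGCTC at 10 to 19, and its summits lay at −26 and −27. In these 4 sequences, of which that of *Prkar1a* was picked for its half-site, a half-site lay within 50 bp of at least 1 BLM summit. This rests on the assumption that the start in RefSeq and the TSS of the gene table are the same base. On that assumption it did not hold for *Ifit2*, searched but not printed, whichever of its 2 starts the gene table used. Its half-site lay at −137 to −128 from the second start, and its summits at 370 and 390 from the TSS of the gene table. For *Prkar1a* it is not known which of its 6 starts the table used. The assumption of a shared start was looked at on 465 enriched regions assigned to 2 genes with promoter entries. There the spacing of both starts in RefSeq matched the spacing of the deposited distances within 100 bp for 281 regions and within 1000 bp for 412. Both limits are wider than the 50 bp above, so this check cannot settle how close summits and half-sites lie. How often a half-site lies that close to any given point of a promoter was not computed. With 1 mismatch allowed, 50.9% of all RefSeq promoters held a half-site, so the closeness is a description only.

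An exact half-site was found in the promoters of 3 of these 5 genes, in 9 of 30 genes whose promoter was reached by an enriched region also called in CTRL, and in 2745 of all 32851 RefSeq promoters (8.36%). With 1 mismatch allowed the counts were 5 of 5, 25 of 30 (83.3%) and 50.9% of all promoters. A full site with up to 13 bases between its half-sites and 1 mismatch in each was found in 1 of 5, 4 of 30 (13.3%) and 2.71% of all, and an exact full site in none of the first and second sets and in 24 promoters overall. Genes with several starts were counted once if any promoter matched, which raises their shares above the share per promoter. With 5 genes these shares are a description and were not compared by a test. *Txlnb* and *Ugt1a6b* had no promoter entry. The remaining gene, *Ifit2*, an interferon-induced antiviral gene, held an exact half-site in 1 of its 2 promoters. Its BLM summits lay at 370 and 390 from the TSS of the gene table, beyond the window of that start. Which of its 2 starts the table used is not known. The windows of these starts were chr19:34550444-34550743 and chr19:34550838-34551137, both on the plus strand. If the table used the first start, the summits fell in the window of the second. If it used the second, they fell in neither window.

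Every member stood on a peak in BLM replicate 2, and 241 of 242 stood on a peak in BLM replicate 1. The exception was the region 22278 bp downstream of *Aadac*, an arylacetamide deacetylase, with a fold enrichment of 6.58 in replicate 2. Fold enrichment is the peak caller's own ratio of the signal at a peak to its local background. Among all 63268 regions formed by joining the peaks of the 4 libraries, 46.6% had a peak in each BLM library, and 2.03% did so while lacking one in CTRL. The rule used this contrast, and nothing is read from the difference.

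Peaks over the members had a fold enrichment from 2.93 to 38.8 in BLM replicate 1, with a median of 9.10. In replicate 2 it ran from 3.84 to 38.9, with a median of 8.95. The members were thus of like height in both libraries, and stood above the middle of each list. Their median percentile by fold enrichment was 75.5 of all peaks in replicate 1 and 74.0 in replicate 2, and 71 and 66 members were in the highest 10% of each list, 46 of them in both. In contrast, 54 and 51 members were below the median of the list. Enriched regions near genes that were also called in CTRL had medians of 21.1 and 21.4, with median percentiles of 98.7 and 98.8. De novo regions far from genes had medians of 8.87 and 8.89, close to those of the members.

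The peaks were narrow. Their median width was 233 and 230 bp in the BLM libraries, against 532 and 543 bp over the near regions called in CTRL and 281 and 279 bp over each whole list. De novo regions far from genes were as narrow, with medians of 233 and 216 bp. Summits in the 2 BLM libraries were a median of 15 bp apart, and within 50 bp of each other for 224 of 241 members (92.9%). Heights agreed less closely between replicates than positions did. Across the 241 members called in both libraries the Spearman correlation of fold enrichment was 0.634, against 0.897 over the 241 near regions called in CTRL, which span a wider range of heights and share the same 2 libraries. Over the 279 de novo regions far from genes it was 0.692, closer to that of the members. Among the members the higher of both values exceeded the lower by a median factor of 1.26, by more than 2 for 20 members, and by at most 3.06. The latter was the region 18587 bp downstream of *Tmem37*, with 2.93 in replicate 1 and 8.95 in replicate 2.

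**Figure D1:**
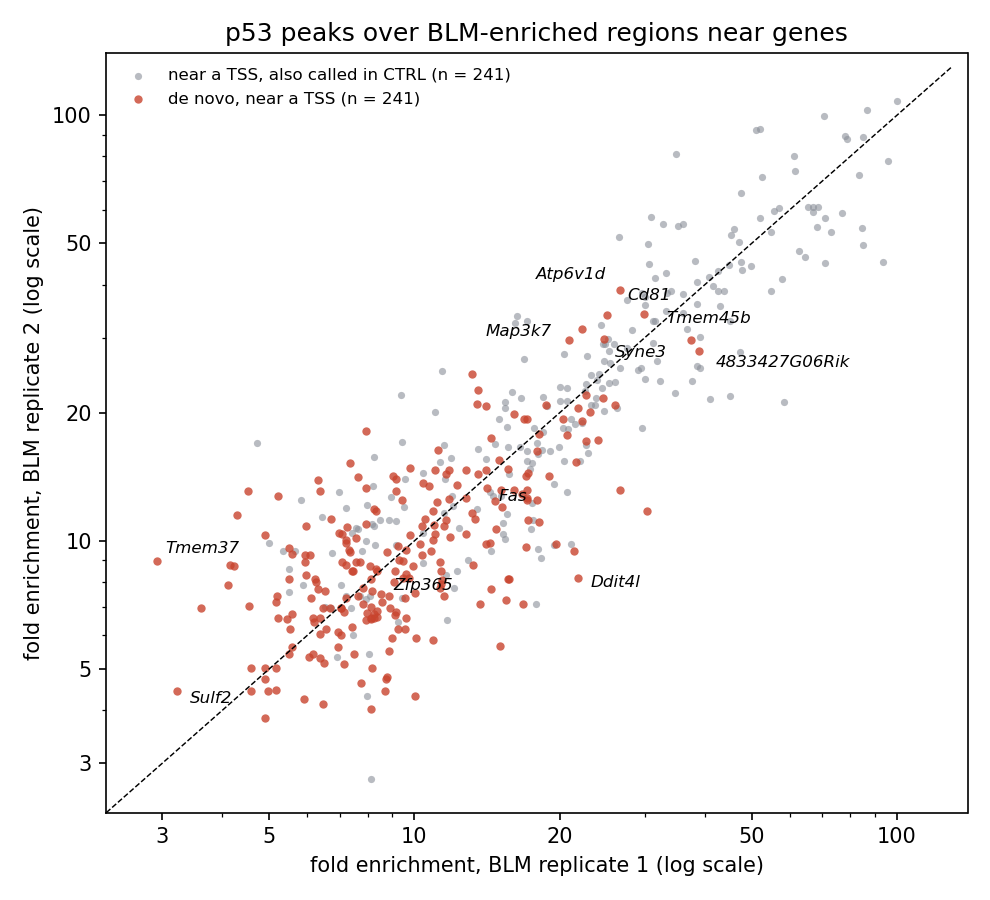
Fold enrichment of the p53 peak in BLM replicate 1 (x axis) and BLM replicate 2 (y axis), both on log scales, with 1 point per region. The 241 de novo regions near genes called in both libraries (red) have medians of 9.10 and 8.95 and reach 38.8 and 38.9, while near regions also called in CTRL (grey) extend to 99.9 and 108. The dashed line marks equal values.

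The 12 members with the highest mean percentile in the 2 BLM lists had the following nearest genes. The region 5627 bp downstream of the *Tmem45b* TSS, at 31369932 to 31370331 on chromosome 9 of GRCm39, reached 37.5-fold enrichment in replicate 1 and 29.7-fold in replicate 2, and ranked 114 of 39577 and 197 of 41451 peaks. The region 3853 bp upstream of *4833427G06Rik*, also on chromosome 9, had 38.8 and 28.0. Both lay far from any CTRL peak, at least 71752 and 55713 bp away respectively. *Cd81*, which encodes a tetraspanin of the cell surface, had a region 1746 bp downstream of its TSS with values of 29.8 and 34.1. *Atp6v1d*, a subunit of the proton pump that acidifies lysosomes, had one 19073 bp downstream with 26.6 and 38.9.

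The other 8 were spread over both sides of their genes. *N4bp1*, a restraint on NF-κB signalling, had a region at 1924 bp with 25.1 and 33.9, and *Syne3*, a nesprin of the nuclear envelope, one at −720 bp with 24.8 and 29.9. *Med18*, a Mediator subunit, had one at 5617 bp, just beyond the end of this gene of 5193 bp, with 22.3 and 31.4. *Map3k7*, which encodes the kinase TAK1 of the TGF-β and NF-κB pathways, had one at −22408 bp with 20.9 and 29.6. These 4 were higher in replicate 2, as were *Cd81* and *Atp6v1d*. *Fam174b* (13136 bp, 24.6 and 21.6), *Rab44* (25181 bp, 26.0 and 20.9), *Mxi1* (−26557 bp, 22.6 and 22.1) and *Rnf169* (521 bp, 23.1 and 20.1) were higher in replicate 1. *Mxi1* encodes an antagonist of MYC, and *Rnf169* a ubiquitin-binding protein recruited to DNA double-strand breaks.

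Of these 12, *Rnf169* and *Atp6v1d* were de novo only in the narrow sense of the rule. The region at *Rnf169* lay 162 and 267 bp from the nearest CTRL peak, and the BLM peak over it was 1117 and 1060 bp wide and itself overlapped a CTRL peak in both BLM libraries. At *Atp6v1d* the peak of BLM replicate 1, 1112 bp wide, overlapped a CTRL peak, whereas that of replicate 2, 554 bp wide, did not. No other member had a BLM peak that touched a CTRL peak, which leaves 240 whose BLM peaks were free of CTRL peaks as well. The 3 members with the lowest mean percentile were those near *Sulf2* (1240 bp, 3.23 and 4.44), *Fat1* (−10320 bp, 4.89 and 3.84) and *Snapc5* (5072 bp, 4.59 and 4.44).

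The gap from a member to the nearest CTRL peak in either library ranged from 98 to 268481 bp, with a median of 6289 bp. It was at most 500 bp for 21 members and at most 1000 bp for 39 (16.1%). The same share was 9.68% over the de novo regions far from genes, whose median gap was 22752 bp. The smallest gap was at *Irx1*, a homeobox gene, with 337 bp to CTRL replicate 1 and 98 bp to CTRL replicate 2, and the largest at *Defb8*, a defensin, with 268481 and 583687 bp. Peak height showed no steady trend along this axis. Over classes of gap size the median fold enrichment ran from 7.76 to 10.0 in BLM replicate 1 and from 8.01 to 10.8 in replicate 2. Members with a gap of at most 500 bp had median fold enrichments of 10.0 and 9.53, and the 19 members with a gap over 50 kb had 9.10 and 8.01. CTRL peaks were closest where members lay next to a start, with median gaps of 871 bp within 1 kb of a TSS and 7739 bp at 5 to 30 kb. Of 18 members within 1 kb of a TSS, 12 had a CTRL peak within 2 kb, as had 24 of 44 at 1 to 5 kb and 31 of 180 at 5 to 30 kb.

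**Figure D2:**
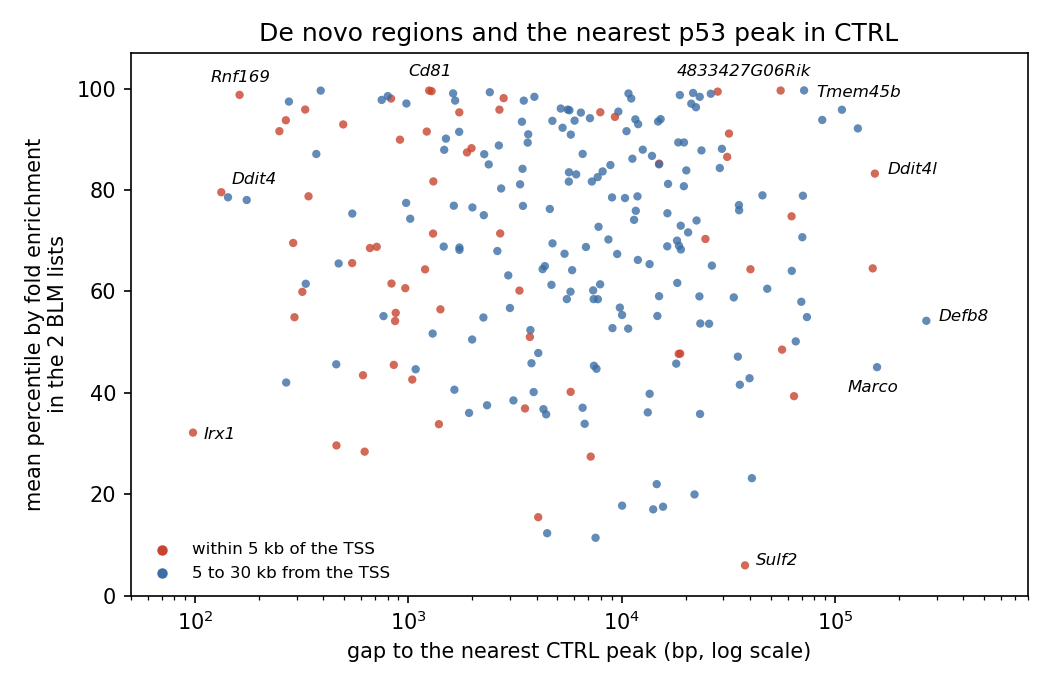
Gap from each of the 241 de novo regions called in both BLM libraries to the nearest CTRL peak (x axis, bp, log scale) and mean percentile of its peak by fold enrichment in the 2 BLM lists (y axis, 100 is the highest). Regions within 5 kb of the TSS are red and regions at 5 to 30 kb blue. Gaps run from 98 bp at Irx1 to 268481 bp at Defb8, and percentiles above and below 50 occur both at gaps under 1 kb and at gaps over 10 kb.

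Most members lay downstream of the nearest start, and most lay farther than 5 kb from it. The median distance to the nearest TSS was 11644 bp, 62 members (25.6%, 95% Wilson interval 20.5 to 31.5%) lay within 5 kb and 18 (7.44%) within 1 kb. Of the near regions called in CTRL, 115 of 241 lay within 5 kb (47.7%, interval 41.5 to 54.0%) and 63 (26.1%) within 1 kb. These intervals cover counting error only and treat regions as independent, and no test was made. The rule itself split both sets by CTRL peaks, whose median gap to members was 871 bp within 1 kb of a TSS and 7739 bp at 5 to 30 kb. How far the rule sets this difference was not tested. Downstream of the TSS lay 155 members and upstream 87 (36.0%, interval 30.2 to 42.2%). Of the near regions called in CTRL 113 lay upstream (46.9%, interval 40.7 to 53.2%), with intervals that overlap. The de novo regions far from genes were like the members, with 105 of 278 upstream (37.8%, interval 32.3 to 43.6%). By distance and RefSeq gene length, 115 of 241 members (47.7%) were inside the span of the nearest gene. The share was 47.1% of the near regions called in CTRL and 32.2% of the de novo regions far from genes. By the rule, far regions can lie only inside genes longer than 30 kb, so their share is not comparable. Exons and introns were not told apart. Members occurred on 20 chromosomes, from 5 regions on chromosome 18 to 21 on chromosome 2.

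**Figure D3:**
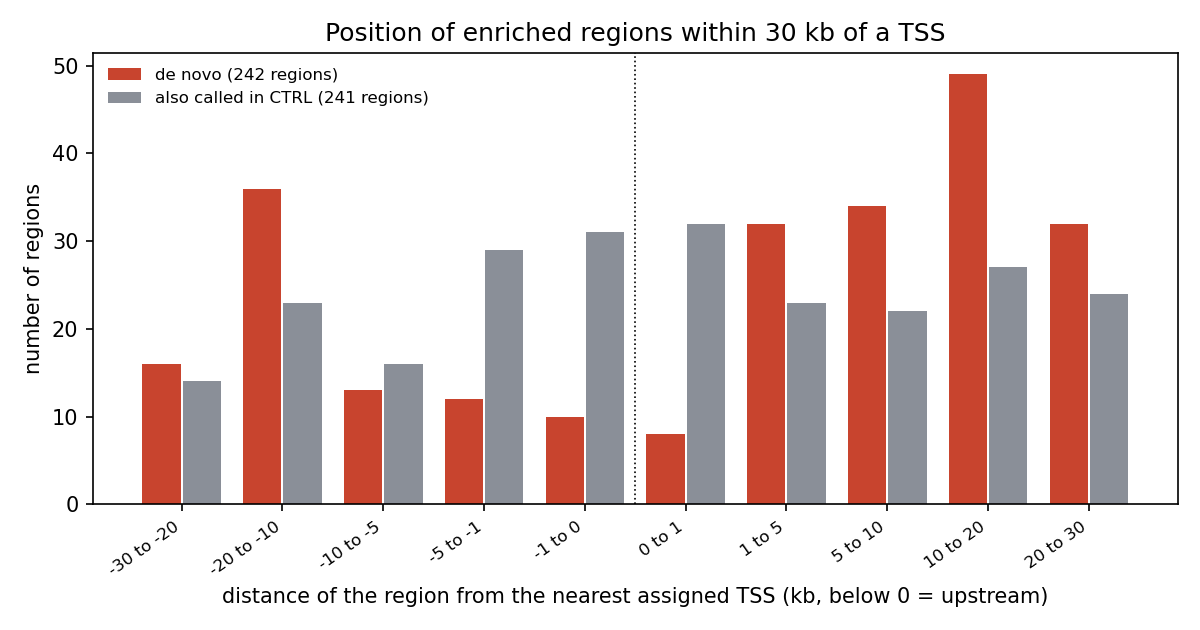
Number of enriched regions (y axis) by signed distance of the region's centre from the nearest assigned TSS (x axis, kb, negative values upstream) for the 242 de novo regions (red) and the 241 regions also called in CTRL (grey). Within 1 kb on both sides of the TSS there are 18 de novo regions against 63 called in CTRL, and the fullest class of de novo regions is 10 to 20 kb downstream, with 49. The classes differ in width.

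The 10 members closest to a TSS included the promoters shown above. At *Zfp365* the region at 67748348 to 67748747 on chromosome 10 of GRCm39, centred 55 bp upstream of the TSS, was enriched 8.34-fold in BLM replicate 1 and 8.58-fold in replicate 2. Its nearest CTRL peak was 24739 bp away. At *Inpp5b* the values were 17.1 and 13.2 with a gap of 9314 bp, at *Prkar1a* 8.38 and 6.86 with a gap of 835 bp, and at *Krtap3-2* 5.93 and 8.90 with a gap of 874 bp. Among these 4, *Inpp5b* had the highest peak in both libraries, and *Zfp365* the closest agreement between replicates and the emptiest surroundings in CTRL.

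*Txlnb*, a taxilin, had a region 1 bp from its TSS with 13.6 and 7.11 and a second at 1674 bp with 7.73 and 4.64, and no CTRL peak lay within 62694 bp. At *Ddit4l*, an inhibitor of the growth kinase mTOR, the region at 373 bp had 21.8 in replicate 1 and 8.16 in replicate 2. The replicates differed there by a factor of 2.68, and no CTRL peak lay within 154003 bp. The remaining members among the 10 were at *Ugt1a6b*, a glucuronosyltransferase (−180 bp, 14.1 and 9.84), *Rabgef1*, an activator of the endosomal GTPase RAB5 (497 bp, 15.0 and 15.4), *Ifit2* (166 bp, 6.93 and 5.63) and *Rnf169*, described above. All 10 were called in both BLM libraries.

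Within 30 kb of their TSS, 272 genes had a member, in 279 pairs of a gene and a region, since 37 members had 2 genes within this distance. Of 21900 protein-coding genes in the RefSeq table, 1.23% had a member within 30 kb of the TSS and 1.22% had an enriched region that was also called in CTRL. Both kinds lay near 17 genes, that is, near 17 of 272 genes with a member and 17 of 270 genes with a region called in CTRL. *Cdkn1a*, the gene of the CDK inhibitor p21 that halts the cell cycle, was one of them. Its region at 3585 bp had fold enrichments of 7.92 and 6.52 and that at 6917 bp had 7.09 and 10.4, both within the gene. They lay 1416 and 4748 bp from the nearest CTRL peak. At the region at 3585 bp the BLM peaks were 910 and 819 bp wide and their summits 724 bp apart. Its values in the replicates thus need not stand for the same site.

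Several genes had a pair of members. *Blmh* encodes bleomycin hydrolase, the enzyme that inactivates bleomycin. Its regions lay at −16646 bp, at 76819485 to 76819884 on chromosome 11 of GRCm39, with fold enrichments of 11.0 and 10.4, and at 15215 bp, within the gene, with 6.23 and 8.12. No enriched region called in CTRL lay within 30 kb of *Blmh*, although CTRL peaks lay 3435 and 14726 bp from the regions. *Foxo3*, a stress-response transcription factor that shares targets with p53, had a region at 2146 bp with 9.24 and 6.19 and another at 15401 bp with 5.23 and 12.8, so that each replicate was high at a different one.

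*Wnt16*, a Wnt ligand, had regions on both sides, at −25568 bp (9.15 and 6.81) and 27191 bp (4.89 and 4.74). In *Irf5*, an interferon regulatory factor, and *Npffr1*, a neuropeptide receptor, the regions of the pair were neighbours, with centres 410 and 531 bp apart, and cannot be counted as separate loci. At *Irf5* they had 6.37 and 6.58, and 11.4 and 8.09, and at *Npffr1* 11.8 and 12.6, and 6.37 and 13.1. *Txlnb* and *Cdkn1a* complete the 7 genes.

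Genes of 15 lists on pathways and cell types, 420 genes in all, were looked up. A member lay within 30 kb of the TSS of 20 of them (4.76%), and an enriched region called in CTRL within 30 kb of 43 (10.2%), 3 genes having both. These shares stand beside 1.23 and 1.22% over all protein-coding genes. The lists were drawn up with results of these data known and hold genes picked for their link to p53 and to the alveolus, so the higher shares say nothing particular about them.

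Known p53 target genes of cell cycle arrest and apoptosis had fewer members than regions already called in vehicle organoids. Of 42 such genes, 4 had a member (9.52%), 16 a region called in CTRL (38.1%), 1 both, and 20 no enriched region assigned at any distance. Beside *Cdkn1a* and *Zfp365*, the genes with a member were *Fas*, a death receptor, and *Rprm*, which encodes the G2 arrest protein Reprimo. *Fas* had a region at 1702 bp, on chromosome 19 and within the gene, with fold enrichments of 14.1 in replicate 1 and 13.3 in replicate 2, at percentiles 94.1 and 91.8. Its nearest CTRL peaks were 874 and 496 bp away. At *Rprm* the region lay 20898 bp upstream, with 7.56 and 10.2 and no CTRL peak within 20521 bp.

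Of 28 genes of the BCL2 and caspase families none had a member, while 4 had a region called in CTRL (*Bax*, *Bbc3*, *Bcl2l11* and *Pmaip1*). Among 16 genes of the p53 family and its feedback, 2 had a member. One was *Foxo3* and the other *Mdm4*, a p53 inhibitor related to *Mdm2*, with a region at 5787 bp, within the gene, of 7.45 and 8.50. *Mdm4* also had a region called in CTRL, as had *Mdm2*. The gap at *Mdm4* was 472 bp to CTRL replicate 1 and 5143 bp to CTRL replicate 2, so a peak near the region was called in 1 vehicle library only.

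For DNA repair and nucleotide supply, 1 of 23 genes had a member and none a region called in CTRL. This was *Ercc5*, the XPG endonuclease of nucleotide excision repair, whose region at 928 bp, at 44187736 to 44188135 on chromosome 1 of GRCm39, had 19.0 and 14.2, at percentiles 98.2 and 93.5. Its gaps to CTRL peaks were 392 and 329 bp. Metabolic and oxidative stress genes had a member in 3 of 28 and a region called in CTRL in 5. *Ddit4*, the mTOR inhibitor REDD1 and relative of *Ddit4l*, had a region at 3304 bp with 10.4 and 9.29, just 133 and 273 bp from CTRL peaks. *Cth*, which makes cysteine by transsulfuration, had one at 21731 bp with 7.09 and 8.90, and *Sat1*, which acetylates polyamines, one at 14480 bp with 8.13 and 6.58.

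In the TGF-β and BMP pathway 2 of 43 genes (4.65%) had a member, namely *Map3k7* and *Ltbp2*, a latent TGF-β binding protein of the matrix (8913 bp, 7.43 and 6.29), and 3 of 43 had a region called in CTRL. Integrins had a member in none of 20 genes. Among growth factors and their receptors 1 of 40 (2.5%) had one, *Igf1r* (9291 bp, 10.3 and 10.8), whereas 7 of 40 had a region called in CTRL.

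Notch and Wnt pathways were the list with the most, 4 of 31 (12.9%), beside 3 of 31 with a region called in CTRL. *Wnt7b*, a ligand of the lung epithelium, had a region at 22090 bp with 17.9 and 16.3 and was the 1 gene of the list with both kinds. *Maml1*, a coactivator of Notch, had one at −11874 bp with 11.5 and 10.8, and *Notch1* itself one at −3128 bp with 7.25 and 10.8. The region of *Wnt4*, at 14672 bp, differed more between replicates, with 4.23 and 8.74.

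Among cell type and secretory genes, none of 16 AT2 cell markers had a member or a region called in CTRL. *Cldn4*, a tight junction claudin that marks transitional cells on their way from AT2 to AT1, was 1 of 25 AT1 and transitional markers (4.00%) with a member (10072 bp, 16.8 and 19.3), at percentiles 97.1 and 98.1. *Tnfsf9*, the ligand of the costimulatory receptor 4-1BB, was 1 of 30 secretory factors of senescence (3.33%) with one (16647 bp, 20.8 and 17.8), and no gene of either list had a region called in CTRL. *Cd81* was 1 of 38 matrix and junction genes, and *Foxo3* 1 of 46 transcription factors.

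**Figure D4:**
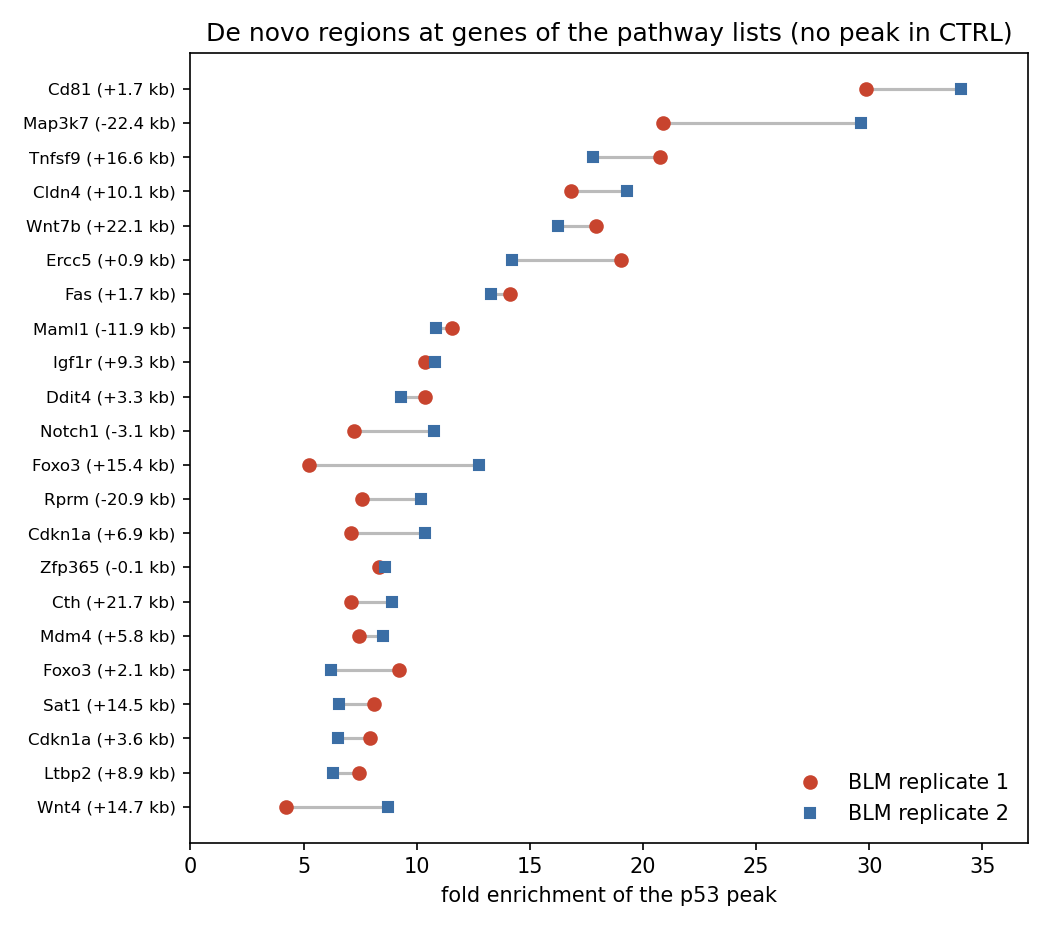
Fold enrichment of the p53 peak in BLM replicate 1 (red circles) and BLM replicate 2 (blue squares) over the 22 de novo regions within 30 kb of a gene of the lists, with the distance from the TSS in brackets and negative values upstream. None had a peak in CTRL. Values run from 4.23 at Wnt4 to 34.1 at Cd81, and 7 regions, from Fas to Cd81, exceed 13 in both libraries.

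**Figure D5:**
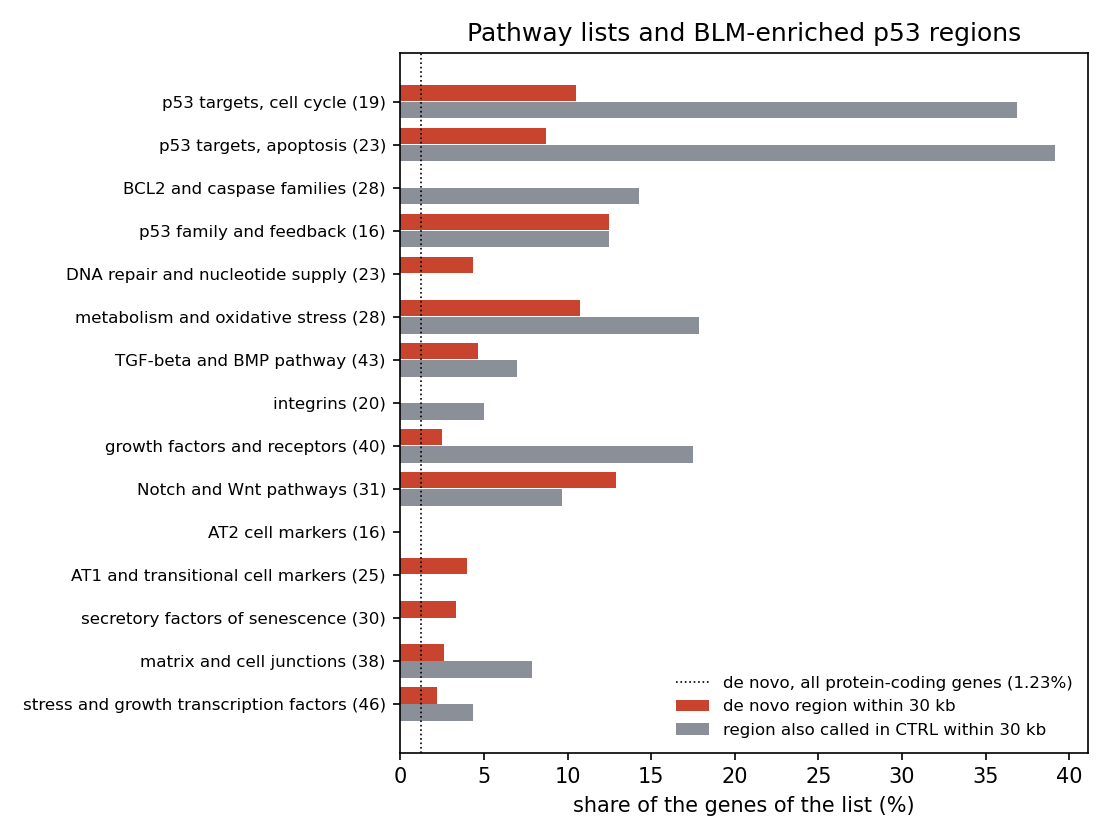
Share of the genes of each list (x axis, %, number of genes in brackets) with a de novo region within 30 kb of the TSS (red) and with an enriched region also called in CTRL within 30 kb (grey). The dotted line marks 1.23%, the share of all protein-coding genes with a de novo region. The grey bars of both p53 target lists reach 36.8 and 39.1%, against 10.5 and 8.70% in red.

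The values of regions on both sides of the 30 kb limit overlapped. Just inside it were the members of *Egfl7* (−28966 bp, 9.62 and 8.36), *Gtpbp4* (−29101 bp, 10.1 and 5.93) and *Asb7* (29204 bp, 9.02 and 14.2). Just outside it were the de novo regions of *Camk4* (30017 bp, 9.24 and 6.59), *Unc5cl* (30221 bp, 7.94 and 10.3) and *Tmem168* (31289 bp, 28.5 and 13.4).

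The member of *Rab44*, 25181 bp downstream of its TSS, belonged to the neighbourhood of *Cdkn1a*. It lay 59548 bp from the nearest other enriched region, the *Cdkn1a* region at 6917 bp, and 10779 bp from the nearest CTRL peak. Members otherwise stood mostly alone. Only 18 of the 242 had another enriched region within 10 kb, and the median separation from the next enriched region was 549490 bp. This was not particular to the members. Of the near regions called in CTRL, 31 of 241 had another within 10 kb, with a median separation of 566325 bp. Of the de novo regions far from genes, 13 of 279 did, with a median of 704339 bp.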

How the data were processed

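p53 ChIP-seq peak lists of 4 libraries (CTRL and BLM, 2 each, with groups from the submitters' labels) were analysed. The authors ran the peak caller on each library on its own and deposited, per peak, a score, a fold enrichment (a ratio to the local background) and the −log10 p-value and −log10 q-value, with the lowest −log10 q just above 2 in every list. The submitters' processing notes name Trim Galore 0.6.7, Bowtie2 2.5.1, MACS3 3.0.0b1, DiffBind 3.8.4 and edgeR 3.40.2, without settings, and the cutoff behind the enriched list is not given in the sources used here. Peak and region positions are those of GRCm39. The authors' gene table was made with GREAT 4.0.4 on mm10 (basal domain 5000 bp upstream and 1000 bp downstream, extension up to 1000000 bp), and its signed distances were used as deposited. No position was converted between builds.

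Overlaps of at least 1 bp were computed with pandas 2.3.3, numpy 2.4.6 and scipy 1.17.1 under Python 3.11.15, and plots were made in matplotlib 3.10.9. Where several peaks overlapped a region the highest by fold enrichment was taken, and percentiles are within 1 list. Sequences and gene lengths are from RefSeq GRCm38.p6, and 271 of 272 genes with a member matched its gene table. Overlap, nearest-gene and half-site searches were tested on simulated data. The input libraries and the sequence of the GRCm39 genome were not used here.

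No comparison between conditions was tested, since an exact permutation test of 2 libraries against 2 gives no two-sided p below 0.333 and the members were chosen on that contrast. Named genes were the 12 members highest and 3 lowest by mean percentile, the 10 closest to a TSS, all listed genes with a member, genes with 2 members, and 3 regions on each side of the 30 kb limit. Genes named for an extreme gap, replicate ratio or missing call were chosen after their values were seen. The members and lists were chosen with earlier results of these data known.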

Additional observations from a re-analysis of the deposited data

How the results depend on the processing

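The 8 results were recomputed under alternatives that gave 62 values, of which 39 stayed within 1.5 times the count, the spread between replicates or the 95% binomial interval. With the distance limit at 10 kb there were 109 members, with median fold enrichments of 8.87 and 8.73 in BLM replicates 1 and 2, 56.9% within 5 kb, 100% called in both BLM libraries and a median gap to CTRL peaks of 3653 bp. At 50 kb the median was 8.81 in replicate 1, 20.3% lay within 5 kb and the median gap was 7364 bp. The number of members and the share within 5 kb follow from the limit's own construction, and the cause of the other shifts was not tested. Without the enriched list or a distance, the joined regions with peaks in each BLM library and none in CTRL numbered 1286. With either CTRL library left out, there were 268 to 282 members, with medians of 9.24 to 9.26 in replicate 1 and 9.35 to 9.46 in replicate 2 and a median gap of 6367 to 7102 bp. The median gap was 6798 bp when CTRL peaks ended membership only from a −log10 q of 5 upwards, 7427 bp when a CTRL peak within 500 bp did, 7216 bp with 39577 peaks from every library, where the median of replicate 2 was 9.29, and 6510 bp when the BLM peaks too had to be free of CTRL peaks, an alternative chosen after seeing the data. Counting BLM peaks only from a −log10 q of 5 upwards, 93.8% of members were called in both BLM libraries, and with 1 mismatch allowed 100% of the 5 promoters held a half-site. The rule does not use the BLM lists, so leaving out a BLM library gives no other members. No paired analysis was possible because the results come from no test. Depth is unknown, and how far CTRL peaks just under the calling threshold lie over members was not tested.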

Other observations

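Some members near genes that no list held are given singly. They were chosen after their values were seen, from 272 genes with a member, and describe no group of genes. *Rev1*, a translesion DNA polymerase, had a region 1174 bp downstream of its TSS with fold enrichments of 18.2 in BLM replicate 1 and 11.1 in replicate 2, and *Ctc1*, of the complex that completes telomere replication, one at 597 bp with 17.1 and 12.6. Both regions had CTRL peaks close by, at 249 and 267 bp. *Tsc2*, a brake on mTOR, had a region at 27745 bp, within the gene, with 17.0 and 9.68. *Atg4a*, a protease of autophagy, had one at 25778 bp with 22.2 and 19.1, and *Lamp1*, a protein of the lysosomal membrane, one at −19184 bp with 21.8 and 20.6. *Cdip1*, a pro-apoptotic p53 target, had a region at 12482 bp with 18.2 and 17.8.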
